A study of Rattus norvegicus with 6 samples.

Results

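The genes described here encode matrix metalloproteases (MMPs), ADAMTS proteases, ADAMTS-like proteins and the tissue inhibitors of metalloproteases (TIMPs). They were taken from the deposited count table by name, as rows whose symbol is Mmp, Timp, Adamts or Adamtsl followed by a digit, with at least 10 counts in 2 or more libraries. Of 52 rows with such a name, 44 of the table's 40995 genes met the count rule and 8 did not. Mmp24os, a transcript on the strand opposite Mmp24, is 1 of the 44 by its name alone and is no protease by name. The count rule uses no genotype, and 42 of the 44 also passed the filter of the test.

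Lung tissue was compared between 3 rats of a crTMPRSS2 knockout line (KO), made by CRISPR/Cas9 editing of Tmprss2, and 3 wild-type rats (WT). Both groups were on a Sprague-Dawley background and received no treatment. The sources used here do not state sex, age, litter or how many founders the edited line had. Each library is labelled as its own biological replicate and was made from poly-T selected RNA of whole lung tissue.

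MMPs are zinc-dependent enzymes that are made as inactive precursors, and together they cleave collagens, elastin, laminins and many proteins at the cell surface. ADAMTS enzymes are secreted zinc proteases that trim procollagens and cut the large proteoglycans. ADAMTS-like proteins lack the catalytic domain and bind microfibrils of the matrix. TIMPs bind the active site of the metalloproteases and hold them inactive. In the lung these genes are known mainly from fibroblasts, macrophages and neutrophils, and from remodelling of the alveolar wall in emphysema and fibrosis.

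Totals of 29933359 to 30514778 counts stood behind the KO libraries and of 33033732 to 36895162 behind the WT libraries. The libraries carried lung messages, with surfactant protein C (Sftpc) at 8325 to 8724 CPM (read counts scaled to TMM library size) in KO and 9470 to 15408 CPM in WT. Tmprss2 stood at 46.1, 56.4 and 47.0 CPM in KO and at 50.5, 62.0 and 65.7 CPM in WT, and gene totals cannot show a small edit. WT replicate 1 stood apart: its 8 striated muscle markers summed to 8841 CPM, against 22.1 to 50.2 CPM in the KO libraries and 22.7 and 26.3 CPM in WT replicates 2 and 3. Its squamous epithelium markers (7 matched of 8) summed to 3243 CPM, against 1.59 to 3.44 CPM in KO and 2.35 and 1.74 CPM in WT replicates 2 and 3. Its 10 fibroblast markers summed to 10077 CPM, against 4541 to 4822 CPM in KO and 6711 and 5897 CPM in WT replicates 2 and 3. Fold changes of members and medians of gene lists are therefore given with all 6 libraries and without WT replicate 1.

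**Figure D1:**
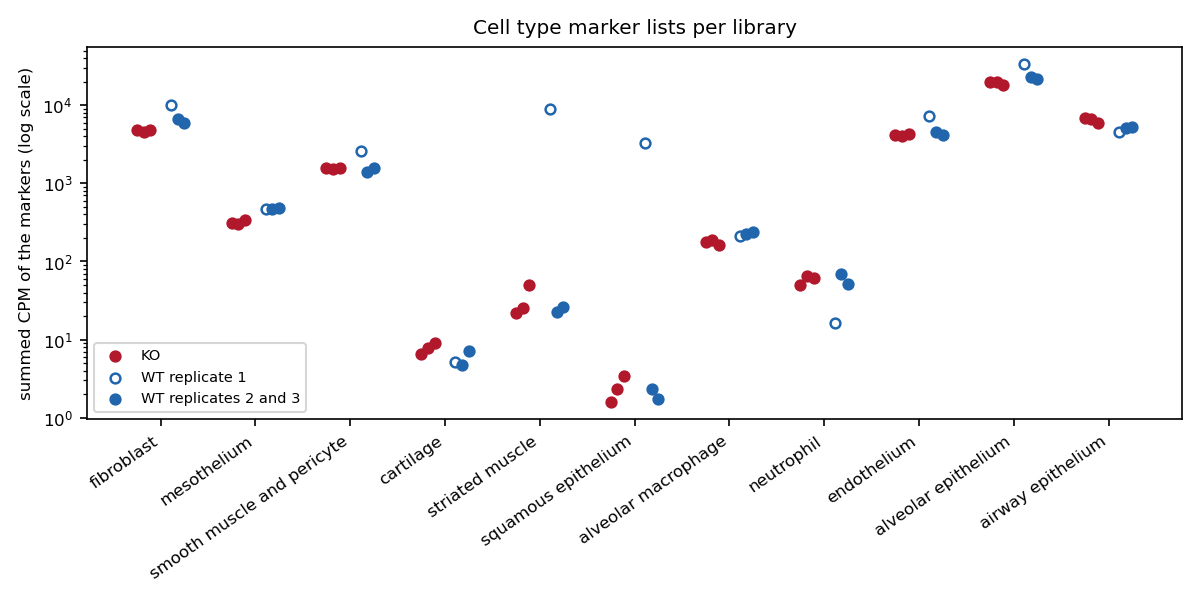
Summed CPM (log axis) of each cell type marker list, 1 point per library, KO left of WT and WT replicate 1 as an open circle. Striated muscle markers reached 8841 CPM in WT replicate 1 and at most 50.2 CPM in the KO libraries, while mesothelium markers lay at 299 to 345 CPM in KO and at 467 to 485 CPM in WT.

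Transcripts of these families were lower in the KO lungs more often than higher, but no member passed the test with all 6 libraries. Of 42 tested members, 32 had a log2 fold change (KO over WT) below 0, which is 76.2%, against 50.3% of all 18464 genes tested. Their median was -0.26, against -0.0029 for all tested genes. By the quasi-likelihood test of edgeR, adjusted over all genes with a threshold of 0.05, 0 members passed, against a background of 0.0542% of all genes (0.0379% lower and 0.0162% higher). An unadjusted p under 0.05 was found for 12 members that were lower, 28.6% of those tested, and for 0 that were higher. The background shares were 6.29% lower and 5.04% higher. In 12 members all 3 KO libraries lay below all 3 WT libraries, against 11.4% of all genes, and in 0 members did they lie above, against a background that was also 11.4%. DESeq2 called 5 members, all lower, where it called 1.67% of all genes lower and 1.06% higher. Limma-voom called 0 members and 0.0379% of all genes. With sample quality weights limma-voom called 11 members, all lower, where it called 4.86% of all genes lower and 4.21% higher.

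Without WT replicate 1, 7 members fell and 0 rose, which is 16.7% of 42 tested. The background in that fit was 3.99% of 18994 genes, 2.34% lower and 1.65% higher. The 7 were Adamts12, Adamtsl2, Mmp2, Adamtsl3, Adamts2, Adamts17 and Timp1. They came from every family of the set, 1 of 14 tested MMPs, 3 of 18 ADAMTS enzymes, 2 of 5 ADAMTS-like genes and 1 of 4 TIMPs. Unadjusted p under 0.05 was found for 13 lower members (background 9.28%) and for 1 higher one, Mmp24os (background 8.52%). All 3 KO libraries lay below both remaining WT libraries in 16 members (background 17.5%) and above them in 1, again Mmp24os (background 17.1%). The share below 0 was 76.2% (background 49.3%), with a median of -0.19. Only 2 WT libraries stand behind these values.

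**Figure D2:**
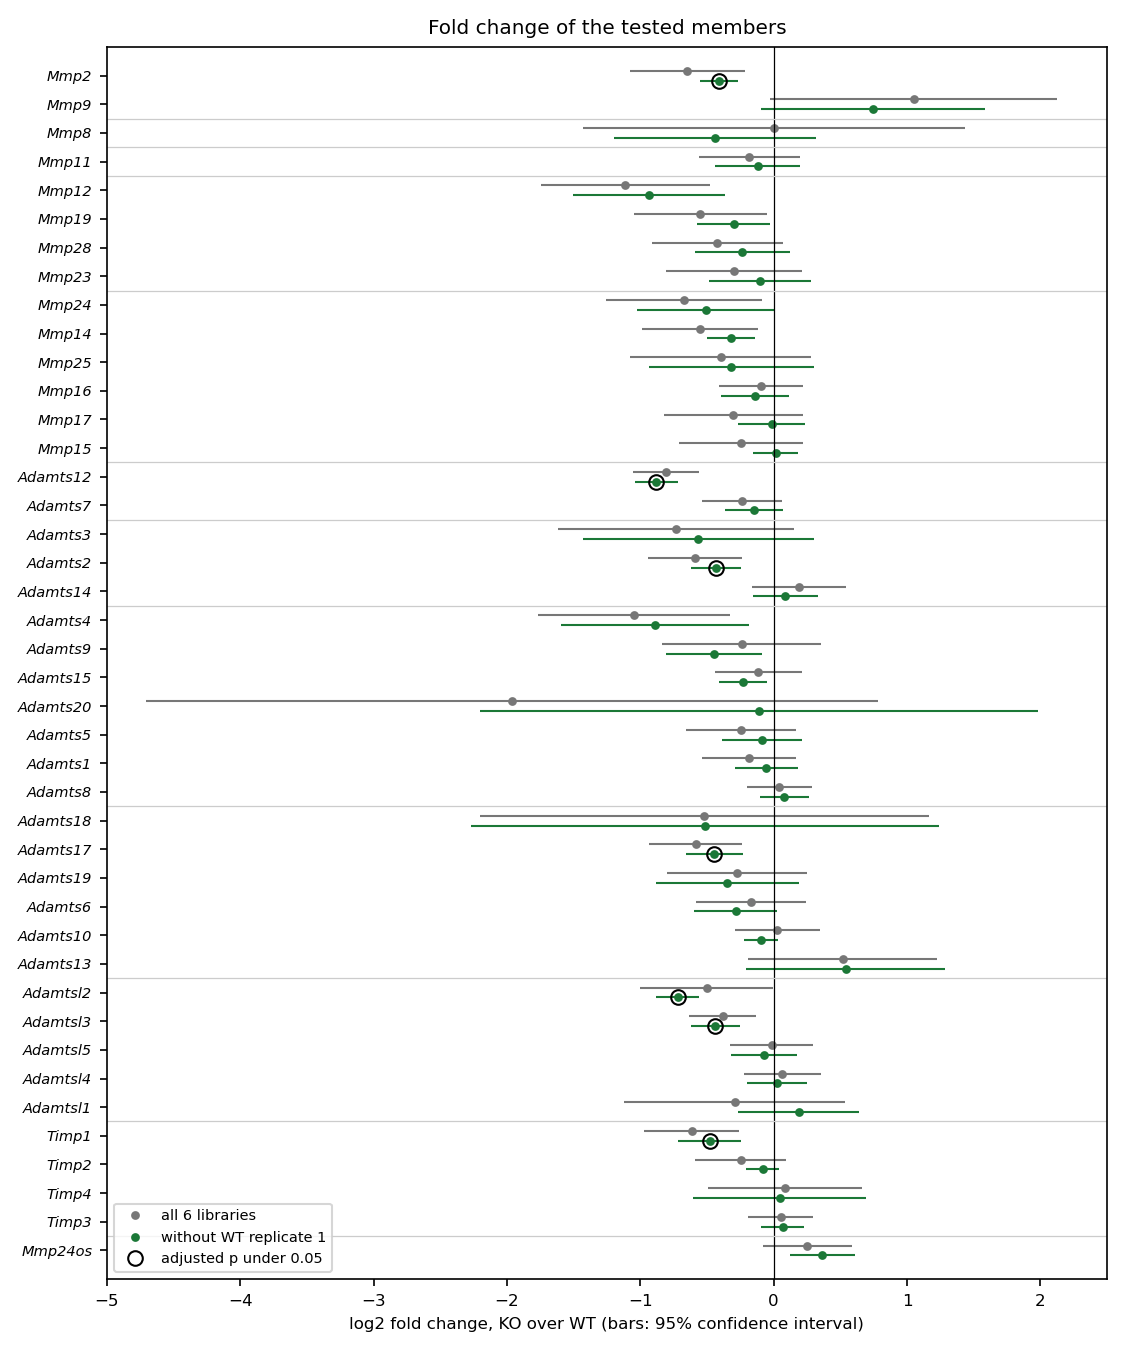
Fitted log2 fold change, KO over WT, of the 42 tested members with 95% confidence intervals, by class from the gelatinases at the top to the TIMPs and, last, Mmp24os, with all 6 libraries (grey) and without WT replicate 1 (green). The 7 circled members passed an adjusted p under 0.05 without that library, and all lie left of 0.

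Per length, the inhibitors Timp3 and Timp2 were the most abundant: Timp3 averaged 220 ± 19.3 FPKM (the authors' values, scaled to gene length and library size) in KO and 213 ± 10.1 FPKM in WT, and Timp2 198 ± 6.98 FPKM in KO and 237 ± 46.7 FPKM in WT (SD, n = 3 each). Timp1 averaged 22.3 FPKM in KO and 34.4 FPKM in WT, and Timp4 1.06 FPKM in KO and 1.00 FPKM in WT. Among the enzymes Mmp2 led, with 87.4 ± 4.56 FPKM in KO and 138 ± 37.8 FPKM in WT. Next came Adamts10, at 53.8 ± 2.09 FPKM in KO and 52.9 ± 8.28 FPKM in WT, and Mmp15, at 47.1 ± 3.59 FPKM in KO and 56.3 ± 16.8 FPKM in WT. The spreads of Timp2 and Timp3 overlapped in both groups, and those of Adamts10 and Mmp15 overlapped in WT. Summed over its 15 members, the MMP family stood at 207, 211 and 192 FPKM in KO, against 377, 256 and 240 FPKM in WT. The ranges of this sum, of which Mmp2 alone made up 45.6%, did not overlap. Those of the 4 TIMPs did, with 472, 423 and 430 FPKM in KO against 550, 470 and 436 FPKM in WT. The 19 ADAMTS genes summed to 154, 145 and 147 FPKM in KO, against 163, 169 and 165 FPKM in WT, and their ranges did not overlap either. The 5 ADAMTS-like genes summed to 45.4, 40.1 and 43.2 FPKM in KO, against 41.8, 51.1 and 57.9 FPKM in WT, with overlap.

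**Figure D3:**
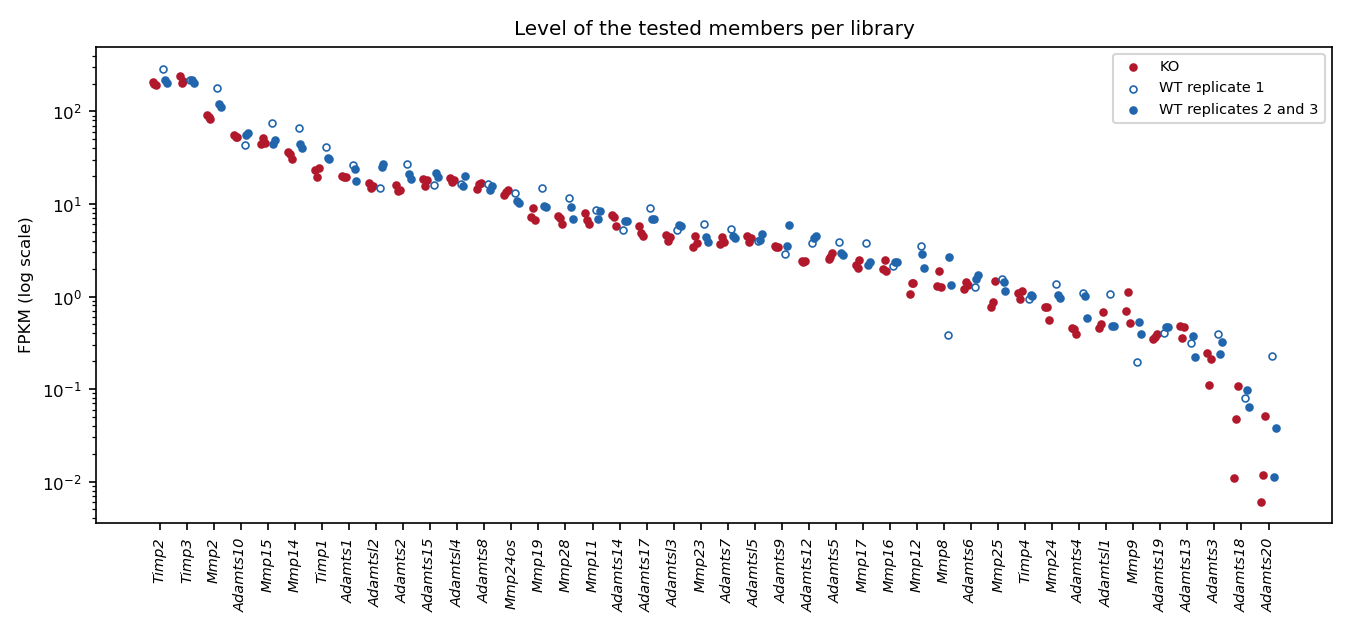
FPKM (log axis) of the 42 tested members in each library, from the highest mean at the left to the lowest at the right, KO left of WT in each pair and WT replicate 1 as an open circle. Timp2, Timp3 and Mmp2 lead, and the open circle of Mmp2 lies at 181 FPKM above the other 5 libraries.

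Counts were at or near 0 for most collagenases and stromelysins. A run of 10 Mmp genes lies on chromosome 8 between 4497960 and 4855908 of mRatBN7.2, a span of 357.9 kb. Mmp1, Mmp3, Mmp10 and Mmp20 had 0 counts in every library, and Mmp1b and Mmp7 had totals under 10. Mmp21, on another chromosome, was also at 0. Mmp27 had 0 counts in every KO library, against 20, 2 and 4 in WT, and so fell outside the rule. Only Mmp8, Mmp12 and Mmp13 of this run are members.

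Mmp13, collagenase 3, had 2, 2 and 0 counts in KO, against 61, 226 and 1 in WT. WT replicates 1 and 2 were high, and WT replicate 3 sat at the KO level. The filter of the test removed it, and it was chosen for naming after its values were seen. Mmp8, the neutrophil collagenase, stood at 1.94, 2.84 and 1.91 CPM in KO, against 0.576, 4.07 and 2.01 CPM in WT. The lowest and the highest value were both in WT, and the log2 fold change was 0.0043 (SE 0.61, edgeR adjusted p = 0.998), or -0.44 without WT replicate 1 (adjusted p = 0.571). The 8 neutrophil markers summed to 49.4 to 64.9 CPM in KO, against 16.5 CPM in WT replicate 1 and 69.2 and 51.3 CPM in WT replicates 2 and 3. Their part in the Mmp8 values was not tested.

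Mmp12, macrophage elastase, was lower in every KO library. It stood at 1.91, 2.55 and 2.52 CPM in KO, against 6.20, 5.25 and 3.67 CPM in WT, and the groups did not overlap. Its log2 fold change was -1.11 (SE 0.27), or 2.16-fold lower, and it did not pass (edgeR adjusted p = 0.257). Without WT replicate 1 the value was -0.93 (SE 0.26, adjusted p = 0.0765). It is the only member among the 192 genes that the authors' deposited table of the KO against WT comparison lists, at a log2 fold change of -1.12 and an adjusted p of 0.0247 there. By what rule genes were listed there is not given here, so absence from it does not show that a member was unchanged. The DESeq2 fit of the same 6 libraries called 5 members, among them Adamts12 (-0.81, DESeq2 adjusted p = 1.375e-07). Alveolar macrophage markers, 6 matched of 8 listed, summed to 165 to 191 CPM in KO and 215 to 237 CPM in WT, and Marco was at 0 to 0.0677 CPM. Of the 5 that were tested, 3 were below 0 and 2 above with all 6 libraries, where 0 passed in edgeR and 2 had an unadjusted p under 0.05. In the fit without WT replicate 1, 4 were below 0 and 1 above, and Mrc1 alone passed (-0.46, edgeR adjusted p = 0.0221). Their part in the Mmp12 values was not tested.

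The promoters of these members are shown because AP-1, the Fos and Jun dimer, is a known activator of several MMP genes. Each runs from 250 bases before to 50 after the gene's start, 5′ to 3′, from RefSeq on build GRCr8, which is not the build of the counts. Capitals mark AP-1 letters (TGANTCA). They also mark TATA letters (TATAAA). They mark GC boxes as well (GGGCGG), and each was searched on both strands. Mmp12 is chr8:12866402-12866701, Mmp13 chr8:12782579-12782878 and Mmp8 chr8:13008640-13008939, all on the plus strand, and Adamts2, a procollagen enzyme that fell without WT replicate 1, is chr10:35421780-35422079 on the plus strand.
Mmp12: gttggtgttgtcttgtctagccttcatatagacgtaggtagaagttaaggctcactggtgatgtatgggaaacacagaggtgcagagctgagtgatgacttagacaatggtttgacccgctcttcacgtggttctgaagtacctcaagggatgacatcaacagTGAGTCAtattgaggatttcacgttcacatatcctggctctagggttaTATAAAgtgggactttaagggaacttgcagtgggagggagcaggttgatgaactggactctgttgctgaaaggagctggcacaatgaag
Mmp13: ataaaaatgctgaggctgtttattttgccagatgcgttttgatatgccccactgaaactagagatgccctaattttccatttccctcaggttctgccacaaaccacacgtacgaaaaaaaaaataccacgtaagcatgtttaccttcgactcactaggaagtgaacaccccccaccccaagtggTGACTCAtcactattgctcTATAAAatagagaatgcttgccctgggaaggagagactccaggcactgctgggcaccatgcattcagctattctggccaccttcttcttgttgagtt
Mmp8: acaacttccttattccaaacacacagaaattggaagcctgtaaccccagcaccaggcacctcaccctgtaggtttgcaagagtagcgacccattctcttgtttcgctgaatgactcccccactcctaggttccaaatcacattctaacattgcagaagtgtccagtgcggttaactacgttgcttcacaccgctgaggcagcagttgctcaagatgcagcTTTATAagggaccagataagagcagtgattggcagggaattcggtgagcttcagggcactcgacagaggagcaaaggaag
Adamts2: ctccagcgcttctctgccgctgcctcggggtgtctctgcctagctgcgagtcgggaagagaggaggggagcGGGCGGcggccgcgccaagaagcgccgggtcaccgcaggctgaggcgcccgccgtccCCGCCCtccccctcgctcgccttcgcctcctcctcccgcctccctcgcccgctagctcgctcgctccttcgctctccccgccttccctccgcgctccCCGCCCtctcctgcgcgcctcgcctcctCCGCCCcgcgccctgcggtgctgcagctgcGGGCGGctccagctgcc
The AP-1 letters began 87 bases before the start in Mmp12 and 66 before it in Mmp13, and these were the 2 of 29 member promoters with a match (6.9%), against 7.33% of all 33469 promoters of this length. The 29 are the members with a single promoter in the table. Mmp12, Mmp13 and Mmp8 each held TATA letters, as did 24.1% of member promoters and 14.2% of all. Adamts2 held none and had 5 GC boxes, letters found in 65.5% of member promoters and 33.1% of all. A match is a description of the letters, and no binding was measured here.

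Of the gelatinases, which cleave denatured collagen and type IV collagen, Mmp2 fell without WT replicate 1 and Mmp9 did not pass. Mmp2 (gelatinase A; chromosome 19, 14154657 to 14182870) stood at 281, 271 and 253 CPM in KO, against 548, 371 and 341 CPM in WT. All KO libraries lay below all WT libraries, and WT replicate 1 was the highest by far. The log2 fold change was -0.65 (SE 0.18), with an edgeR adjusted p of 0.294. Without WT replicate 1 the log2 fold change of Mmp2 was -0.41 (SE 0.06), which passed (adjusted p = 0.00822) and is 1.33-fold lower. Mmp9 (gelatinase B, a product of neutrophils and macrophages) had the largest positive value of the tested members and was chosen for naming after its values were seen. It stood at 2.07, 3.34 and 1.56 CPM in KO, against 0.576, 1.60 and 1.18 CPM in WT, with overlapping groups; it did not pass (1.05, SE 0.46, edgeR adjusted p = 0.445; 0.75 without WT replicate 1, adjusted p = 0.349).

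Membrane-type MMPs were mostly lower without passing. Mmp14 (MT1-MMP, which activates the Mmp2 precursor at the cell surface) stood at 89.4, 85.5 and 76.4 CPM in KO, against 160, 111 and 98.7 CPM in WT. The groups did not overlap, as for Mmp2, and the log2 fold change was -0.55 (SE 0.18, edgeR adjusted p = 0.36), or -0.32 without WT replicate 1 (SE 0.08, adjusted p = 0.0623). Mmp24 (MT5-MMP) stood at 3.30, 3.31 and 2.36 CPM in KO, against 5.82, 4.40 and 4.10 CPM in WT, and did not pass (-0.67, SE 0.25, adjusted p = 0.393, or -0.51 without WT replicate 1). Mmp24os, which overlaps Mmp24 by 637 bases on the opposite strand, stood at 17.8, 19.5 and 20.5 CPM in KO, against 18.6, 15.4 and 14.6 CPM in WT, at 0.25 with all 6 libraries and 0.36 without WT replicate 1 (adjusted p = 0.106). How the counting treated strand is not stated, so reads of this pair may be mixed. Mmp15 (MT2-MMP) stood at 170, 197 and 177 CPM in KO, against 286, 169 and 190 CPM in WT, with a value of -0.25 that turned to 0.02 without WT replicate 1 (edgeR adjusted p = 0.948). The other 3, Mmp16, Mmp17 and Mmp25, had values of -0.40 to -0.10, or -0.32 to -0.015 without WT replicate 1. All 6 of the class were below 0 with all 6 libraries, and 5 without that library.

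The remaining secreted MMPs did not pass in either fit. Mmp19 stood at 19.1, 23.8 and 17.8 CPM in KO, against 38.9, 25.2 and 24.6 CPM in WT. The groups did not overlap, by a margin of 23.8 CPM against 24.6 CPM, and the log2 fold change was -0.55 (SE 0.21, edgeR adjusted p = 0.413). It was -0.30 without WT replicate 1 (adjusted p = 0.239). Mmp11 (stromelysin 3) stood at 18.3, 15.4 and 13.8 CPM in KO, against 19.5, 15.5 and 18.9 CPM in WT, with overlapping groups. Its log2 fold change was -0.18 (SE 0.16, adjusted p = 0.646), or -0.12 without WT replicate 1. Those of Mmp23 and Mmp28 lay between -0.42 and -0.30, or between -0.23 and -0.10 without that library.

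Adamts12 was the member with the smallest p in both fits. It encodes a protease that cleaves cartilage oligomeric matrix protein (COMP) and lies on chromosome 2, 60032873 to 60327629. It stood at 25.4, 25.2 and 25.4 CPM in KO, against 39.7, 45.8 and 47.5 CPM in WT. The 3 KO libraries were nearly equal, and the lowest WT library, replicate 1, lay well above them. The log2 fold change was -0.81 (95% confidence interval -1.05 to -0.56), 1.75-fold lower, and did not pass (edgeR adjusted p = 0.0899). Without WT replicate 1 it fell by 0.88 (SE 0.07, adjusted p = 0.000293), 1.84-fold lower. Adamts7, the other COMP-cleaving member, stood at 23.0, 27.2 and 24.0 CPM in KO, against 32.6, 28.3 and 26.6 CPM in WT, with overlapping groups and a value of -0.24 (SE 0.13, adjusted p = 0.506), or -0.15 without WT replicate 1. Comp itself, given because the class is named after it, was low, at 1.13 to 2.02 CPM in KO and 0.784 to 1.90 CPM in WT.

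**Figure D4:**
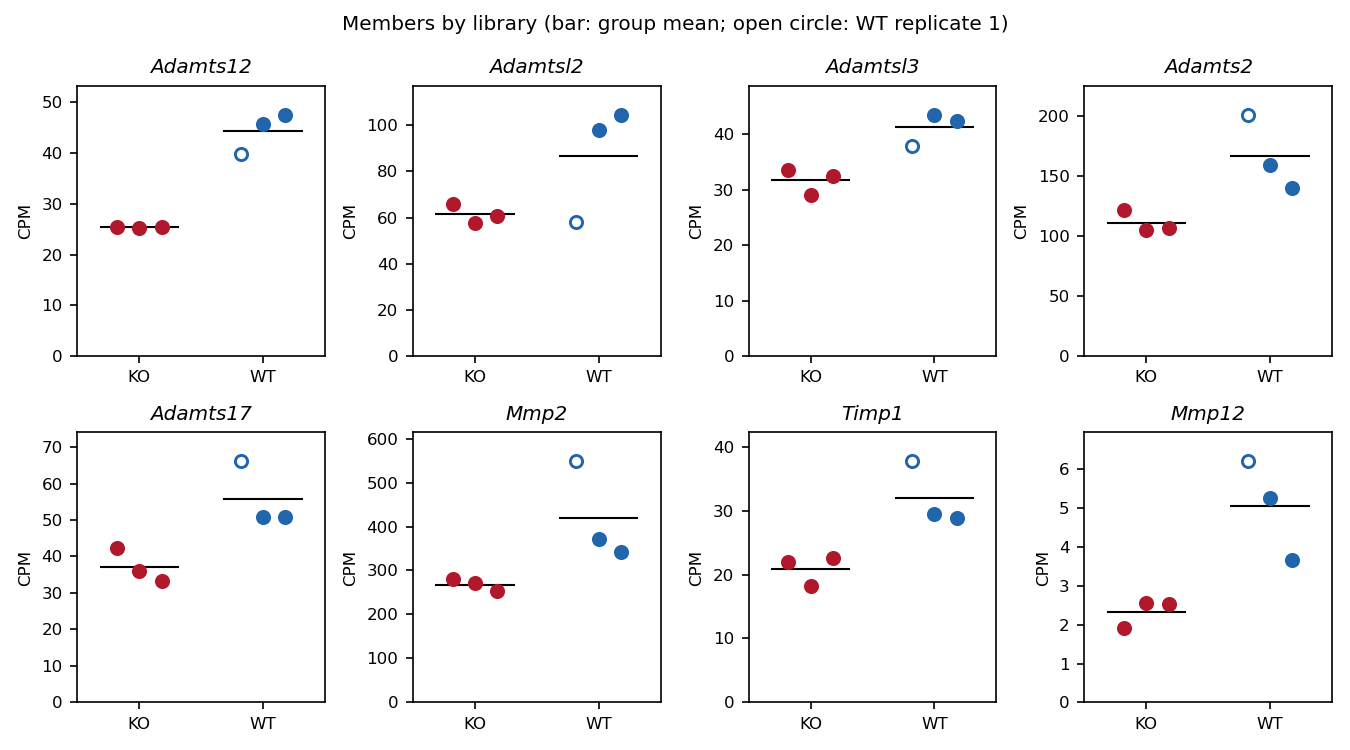
CPM of the 7 members that fell without WT replicate 1, and of Mmp12, in each library, KO left of WT, with bars for the group means and WT replicate 1 as an open circle; every axis starts at 0. WT replicate 1 lies above the other WT libraries for Mmp2 (548 CPM) and Adamts2 (201 CPM) and below them for Adamtsl2 (58.1 CPM) and Adamts12 (39.7 CPM).

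Among the procollagen N-propeptidases, which remove the amino-terminal propeptide of fibrillar collagens, Adamts2 fell without WT replicate 1 and its relatives did not pass. Adamts2 (chromosome 10, 34920996 to 35126465) stood at 122, 105 and 106 CPM in KO, against 201, 159 and 140 CPM in WT, with no overlap. The log2 fold change was -0.59 (SE 0.15, edgeR adjusted p = 0.259), and -0.43 without WT replicate 1 (SE 0.08, adjusted p = 0.0207). Adamts3 and Adamts14 had values of -0.73 and 0.19, or -0.57 and 0.088 without WT replicate 1, and did not pass.

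The aggrecanases and other proteoglycanases, which cut aggrecan and versican, gave 0 passes among 7. Adamts1, which had the highest mean FPKM of them (19.8 ± 0.24 in KO and 22.6 ± 4.58 in WT, SD, n = 3 each), stood at 88.2, 86.4 and 86.9 CPM in KO, against 115, 104 and 77.2 CPM in WT. The KO values fell within the WT range, and the value was -0.18 (SE 0.15, edgeR adjusted p = 0.626), or -0.055 without WT replicate 1. Adamts15 had similar FPKM, 17.4 ± 1.56 in KO and 18.9 ± 2.77 in WT, and lay above Adamts1 in WT replicate 3. Adamts4 stood at 1.52, 1.51 and 1.34 CPM in KO, against 3.66, 3.44 and 1.98 CPM in WT. It did not overlap but did not pass (-1.05, SE 0.31, adjusted p = 0.303, or -0.89 without WT replicate 1). The other 5 members of the class had values of -1.96 to 0.04, or -0.45 to 0.081 without WT replicate 1. The lowest belongs to Adamts20, which had 2, 4 and 17 counts in KO, against 71, 4 and 15 in WT, and -0.11 without WT replicate 1.

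Among the other ADAMTS enzymes, Adamts17 fell without WT replicate 1. Adamts17 and Adamts10 are both linked to Weill-Marchesani syndrome in humans, a disorder of fibrillin microfibrils. Adamts17 (chromosome 1, 120445800 to 120768204) stood at 42.4, 36.1 and 33.3 CPM in KO, against 66.1, 50.7 and 50.8 CPM in WT, with no overlap. Its log2 fold change was -0.58 (SE 0.15, edgeR adjusted p = 0.259), and -0.45 without WT replicate 1 (SE 0.10, adjusted p = 0.0319). Adamts10, the most abundant ADAMTS gene, stood at 242, 227 and 227 CPM in KO, against 185, 242 and 255 CPM in WT. Its groups overlapped, and its value of 0.03 with 6 libraries became -0.10 without WT replicate 1 (95% confidence interval -0.23 to 0.03). Adamts6, Adamts13, Adamts18 and Adamts19 had values of -0.52 to 0.52, or -0.52 to 0.54 without WT replicate 1, and did not pass, and Adamts16, with 0, 0 and 10 counts in KO against 26, 6 and 2 in WT, was not tested.

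Adamtsl2, which binds fibrillin 1 and is mutated in geleophysic dysplasia in humans, fell without WT replicate 1. It lies on chromosome 3, 10397774 to 10434557, and stood at 65.9, 57.7 and 60.6 CPM in KO, against 58.1, 97.8 and 105 CPM in WT. WT replicate 1 sat among the KO libraries, and the other 2 WT libraries lay far above. The log2 fold change was -0.50 with all 6 libraries (SE 0.21, edgeR adjusted p = 0.44) and -0.72 without WT replicate 1 (SE 0.07, adjusted p = 0.000836), 1.65-fold lower. Adamtsl3 (chromosome 1, 136288793 to 136596986), a secreted protein of the same family, stood at 33.5, 29.1 and 32.5 CPM in KO, against 38.0, 43.5 and 42.4 CPM in WT. The groups did not overlap, at -0.38 (SE 0.11, adjusted p = 0.288) and at -0.44 without WT replicate 1 (SE 0.08, adjusted p = 0.0179). Adamtsl1, Adamtsl4 and Adamtsl5 had values of -0.29 to 0.07 and did not pass, and Adamtsl1, the lowest of them, turned to 0.19 without WT replicate 1.

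Of the inhibitors, Timp1 fell without WT replicate 1 and the other 3 did not pass. Timp1 (chromosome X, 1212969 to 1217714), an inducible inhibitor of most secreted MMPs, stood at 21.9, 18.2 and 22.6 CPM in KO, against 37.7, 29.5 and 28.8 CPM in WT. The groups did not overlap. The log2 fold change was -0.61 (SE 0.15, edgeR adjusted p = 0.258), and -0.48 without WT replicate 1 (SE 0.11, adjusted p = 0.0369), 1.39-fold lower. Timp2, which takes part in activation of the Mmp2 precursor by Mmp14, stood at 750, 724 and 700 CPM in KO, against 1046, 797 and 739 CPM in WT. Its groups overlapped at 739 to 750 CPM, and the value was -0.25 (95% confidence interval -0.59 to 0.09). It was -0.082 without WT replicate 1 (95% confidence interval -0.21 to 0.04). Timp3, the matrix-bound inhibitor that also blocks ADAMTS enzymes, stood at 1104, 939 and 974 CPM in KO, against 985, 1003 and 919 CPM in WT, at 0.05 (95% confidence interval -0.19 to 0.30), or 0.07 without WT replicate 1. Timp4, the scarcest, stood at 1.88, 1.64 and 1.98 CPM in KO, against 1.63, 1.81 and 1.74 CPM in WT, at 0.09 (95% confidence interval -0.50 to 0.67), or 0.05 without WT replicate 1. Timp1, Timp3 and Timp4 lie wholly within the synapsin genes Syn1, Syn3 and Syn2 on the opposite strand, which had means of 21.5, 105.7 and 7 counts against 855, 31840 and 57.5 for the inhibitors. An uncharacterised locus on the strand opposite Mmp2 had a mean of 60.2 counts against 11070, and Saxo2, which overlaps Adamtsl3 on the opposite strand, had 207 against 1187.

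Of the matrix substrates of these enzymes, 8 fell without WT replicate 1, which is 42.1% of those tested (background 2.34%). Of 22 listed substrates, 19 were tested and 18 were below 0 (background 50.3%), with a median of -0.52. These were 16 and -0.31 without WT replicate 1. With all 6 libraries 0 passed in edgeR and 12 had an unadjusted p under 0.05, all lower (background 6.29%). Without WT replicate 1 none passed as higher, while 3 were above 0, the highest at a log2 fold change of 1.01. Col1a2, a chain of type I collagen, stood at 800, 763 and 798 CPM in KO, against 2019, 1267 and 1087 CPM in WT, at -0.58 without WT replicate 1 (edgeR adjusted p = 0.00172). Fbn1 (fibrillin 1) stood at 259, 241 and 240 CPM in KO, against 480, 328 and 329 CPM in WT, at -0.41 (adjusted p = 0.00405). For both genes every KO library lay below every WT library. Tnc (tenascin C) and Col4a1 (type IV collagen) also fell, by 0.63 and 0.43. Col1a1, Col1a2, Col3a1 and Dcn stand on the fibroblast marker list as well, so the 2 lists are not separate observations. The lists were drawn up with earlier results of these libraries known, and are no independent evidence of a direction.

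Without WT replicate 1, other regulators gave fewer calls than the substrates. The background in that fit was 2.34% of genes lower and 1.65% higher. For an unadjusted edgeR p under 0.05 it was 9.28% lower and 8.52% higher, or 6.29% and 5.04% with all 6 libraries. Of 21 listed activators, receptors and further inhibitors, 17 were tested. Of these, 16 were below 0 with all 6 libraries (median -0.27) and 15 without WT replicate 1 (median -0.14). An unadjusted p under 0.05 was found for 5 lower ones with all 6 libraries and 6 without WT replicate 1. In both fits 0 were higher at that level. Lcn2 fell in both fits, to 3.01, 2.65 and 3.06 CPM in KO, against 270, 229 and 116 CPM in WT (edgeR adjusted p = 0.00356 with 6 libraries). Plat, tissue plasminogen activator, stood at 159, 141 and 142 CPM in KO, against 207, 202 and 214 CPM in WT, and fell without WT replicate 1 (-0.49, adjusted p = 0.00406). Of 12 tested genes of the related ADAM family, 6 were below 0 with a median of 0.02, or 5 with a median of 0.0094 without WT replicate 1. In either fit 0 of them passed. Unadjusted p under 0.05 was found for 0 with 6 libraries, and for 2 lower and 1 higher without WT replicate 1. Of 17 tested cytokines and transcription factors that drive metalloprotease genes, 0 passed with 6 libraries in edgeR (6 at an unadjusted p under 0.05, 5 of them lower). Their median was -0.25, or -0.15 without WT replicate 1. Without WT replicate 1 Tgfb2 fell (-0.40, adjusted p = 0.0259) and Ets1 rose (0.29, adjusted p = 0.045). At an unadjusted p under 0.05, 6 of the list were lower and 2 higher in that fit.

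Markers of several cell types differed between the groups beside the members. In the fit without WT replicate 1, 4 of 10 fibroblast markers fell, all of them collagens (Col1a1, Col1a2, Col3a1 and Col14a1), and 7 of 8 mesothelium markers fell. The background in that fit was 2.34% lower and 1.65% higher. Col1a1, Col1a2 and Col3a1 are also on the substrate list above. Mesothelium markers summed to 299 to 345 CPM in KO and 467 to 485 CPM in WT. Of 8 alveolar epithelium markers 2 fell, Sftpc and Lamp3, and of 6 airway epithelium markers 2 rose, Scgb1a1 and Scgb3a2, products of club cells. Airway epithelium markers summed to 5996 to 6965 CPM in KO and 4610 to 5332 CPM in WT. Other lists were mixed in the fit without WT replicate 1. Of 8 smooth muscle and pericyte markers 1 fell, and 1 was lower and 3 higher at an unadjusted edgeR p under 0.05. Of 7 endothelium markers 1 fell, and 3 were lower and 2 higher at that level. The backgrounds at that level were 9.28% lower and 8.52% higher. With all 6 libraries 0 of these markers passed in edgeR. Lower at an unadjusted p under 0.05 were 5 fibroblast, 7 mesothelium, 2 alveolar epithelium, 2 endothelium and 1 smooth muscle and pericyte markers (background 6.29%). Higher at that level were 3 airway epithelium markers (background 5.04%). In bulk tissue, fewer cells of a type and less RNA per cell cannot be told apart. As a description chosen after the values were seen, members were divided by the summed CPM of the fibroblast markers. Per 1000 CPM of all 10 markers, Mmp2 stood at 58.2, 59.6 and 53.0 in KO, against 54.4, 55.3 and 57.8 in WT, so that its groups overlapped. Timp1, Mmp14, Adamts2, Adamts17 and Adamtsl3 overlapped on this scale too. Adamts12 stood at 5.27, 5.55 and 5.33 in KO, against 3.95, 6.83 and 8.06 in WT, and Adamtsl2 at 13.7, 12.7 and 12.7 in KO, against 5.77, 14.6 and 17.7 in WT. For this pair KO lay below WT replicates 2 and 3 but not below WT replicate 1.

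The overlap depended on the collagens in the marker list. Per 1000 CPM of the 6 markers that are not collagens, which summed to 814 to 944 CPM in KO and to 918 to 1344 CPM in WT, Mmp2 stood at 297, 332 and 303 in KO, against 408, 378 and 372 in WT. On that scale Mmp2, Mmp14, Adamts2, Adamts17 and Timp1 had every KO library below every WT library. Adamts12, Adamtsl2 and Adamtsl3 had KO below WT replicates 2 and 3. Each of these genes showed the same order on plain CPM. Apart from Mmp14, the genes divided were those that fell without WT replicate 1. The ratio was not computed for other genes, so no background share stands beside it. The part of cell makeup in these differences was not tested.

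Within the members the KO libraries were close to each other. WT replicate 1 had the highest CPM in 23 of the 44 members and the lowest in 6, while KO replicates 1, 2 and 3 had the lowest in 11, 9 and 11. The median within-group SD of log2 CPM over the tested members was 0.12 in KO and 0.23 in WT, or 0.10 for WT replicates 2 and 3 alone. Over all tested genes the corresponding medians were 0.10 in KO, 0.23 in WT and 0.09 for WT replicates 2 and 3.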

How the data were processed

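The authors' table holds raw counts and FPKM values for 40995 genes. The submitters' processing notes list featureCounts 2.0.6, DESeq2 1.42.0, StringTie 2.2.3, HISAT2 2.2.1 and CASAVA, and the build mRatBN7.2. How strand was handled is not given in those sources. The deposited FPKM values equal count over length over a library size proportional to a DESeq2 size factor. The authors' deposited comparison table holds log2 fold changes, p-values and counts scaled as a signal per library, and its values were used for Mmp12 alone. Even counts from 2 to 10 outnumbered odd ones from 1 to 9 (3171 against 1641 genes in WT replicate 1), so a count may be 1 read of a pair, and whether pairs were counted as 1 is not stated.

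Counts of the whole table were fitted with edgeR 4.0.16 in R 4.3.3 (TMM, filterByExpr with a minimum count of 10 and total of 15, glmQLFit, glmQLFTest, genotype as single term) with Benjamini-Hochberg adjustment over all tested genes and a threshold of 0.05. Standard errors are the log2 fold change over the square root of F. CPM uses TMM library sizes. limma 3.58.1 and DESeq2 1.42.0 were alternatives. The fits were tested on simulated counts with known changes. Groups and replicate numbers come from the sample titles. Libraries of a group differed by more than counting noise, so none was merged. Chi-square per gene was 7.95 to 12.1 among the KO libraries and between WT replicates 2 and 3. For WT replicate 1 it was 139.8 against WT replicate 2 and 172.4 against WT replicate 3.

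Members and lists were chosen with earlier results of these data known. Named in full are members past the threshold in either fit, the 12 with the smallest p with 6 libraries, the 6 with the smallest p without WT replicate 1, every Timp and the most abundant member of each class. From other lists, genes past the threshold are named, at most 4 per list. Mmp13, Mmp9, Adamts16, Adamts20 and the 8 rows outside the count rule were named after their values were seen, and the other members are given in ranges. All 44 member IDs matched the RefSeq table (GRCr8), which was used for names and promoters alone. Not every gene that overlaps a member is reported here.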

Additional observations from a re-analysis of the deposited data

How the results depend on the processing

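With all 6 libraries, RLE and upper quartile scaling, limma-voom, limma on log2(FPKM + 1) or log2(FPKM + 0.1), no filter, a filter of 50 counts in 3 libraries and a replicate block each gave 0 changed members. DESeq2 gave 5 members and 501 genes, and limma-voom with sample quality weights 11 members and 1676 genes, against 0 and 10. The replicate block left 2 genes. The numbers pair no samples by the labels, and the deviations of same-numbered libraries from their group means correlated across genes at -0.12, 0.05 and -0.12. Leaving out 1 library gave 0 to 7 changed members and 1 to 758 genes, with the 7 and the 758 both without WT replicate 1. In the fit without WT replicate 1, DESeq2 gave 1188 genes, and no filter gave 12 members and 1707 genes, against 7 and 758. The median log2 fold change of the members stayed between -0.35 and -0.17. Of 352 refitted values of 22 named members, 320 kept their direction and side of the threshold, 22 passed it and 10 reversed, and the cause was not tested. All 10 belong to 4 members that did not pass. With quality weights Mmp8 was at -0.57, Mmp15 at 0.059 and Adamts10 at -0.073, against 0.0043, -0.25 and 0.03. Leaving out 1 library, Mmp8 ran from -0.44 to 0.77, Mmp15 from -0.39 to 0.016, Adamts10 from -0.098 to 0.12 and Timp3 from -0.019 to 0.10. The adjusted p of Adamts12 ran from 1.375e-07 (DESeq2) to 0.5255 (without KO replicate 1), and those of the other 6 members that fell without WT replicate 1 from 0.0007145 to 0.829. Depth limits Adamts16, Adamts18, Adamts20 and Mmp13, which had under 10 counts in at least 1 library.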
